A study of Homo sapiens with 9 samples.

Results

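Chromosome 9 outside the ABL1 segment was taken as all peaks of the 6 deposited hg19 lists that lie on chromosome 9, except those starting from 133000000 to 135000000, the segment around ABL1. It held 683 of 20698 peaks, of which 538 came from SRA lists and 145 from LacZ lists. Peaks ending below 47367679 were counted to the short arm (90 peaks) and peaks starting above 50367679 to the long arm (593 peaks), and no peak fell between these limits. The study used ChIRP-seq, in which chromatin fixed to a chosen RNA is recovered with biotinylated probes for that RNA, in K562, an established erythroleukemia cell line. One group was pulled down with probes against the long non-coding RNA SRA and the control group with probes against LacZ, a bacterial transcript, with 3 samples each. The 3 input samples were not analysed here. The lists give no read counts, so the depth of each sample is unknown.

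CDKN2A on the short arm encodes tumor suppressors that hold back the cell cycle, and K562 cells have lost DNA around this gene. DNA that a genome lacks gives no reads with any probe set. ABL1 on the long arm encodes the tyrosine kinase that K562 carries fused to BCR, in many copies.

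SRA lists 1, 2, and 3 had 179, 172, and 187 peaks on chromosome 9 outside the ABL1 segment. These were 3.59% (95% Wilson interval 3.11 to 4.15%), 3.48% (3.0 to 4.03%), and 3.61% (3.13 to 4.15%) of all peaks of each list. LacZ lists 1, 2, and 3 had 65, 73, and 7 such peaks, or 2.43% (1.91 to 3.08%), 2.79% (2.22 to 3.49%), and 2.41% (1.17 to 4.9%). All 3 SRA shares lay above all 3 LacZ shares, with means 1.01 percentage points apart (3.56% ± 0.0701 against 2.54% ± 0.212, SD, n = 3 each). The two-sided exact permutation test gave p = 0.1, the smallest that 3 lists against 3 allow. Wilson intervals cover counting error only, and the interval of LacZ list 3 spans those of all SRA lists.

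The SRA lists were not independent here. All 308 overlapping pairs of peaks between SRA lists were identical in both ends, and 53 of them also had the same score, whereas none of the 10 overlapping pairs between LacZ lists shared both ends. Tests of SRA against LacZ are therefore given both with the lists as separate samples and with SRA as 1 sample, and the SD given for SRA is no replicate error. With SRA as 1 sample the difference in share had an exact permutation p = 0.25, again the smallest possible. LacZ list 3 also stood apart. It held 290 peaks in all, against 2676 and 2617 in LacZ lists 1 and 2. SRA lists 1, 2, and 3 held 4982, 4946, and 5187. The 7 peaks of LacZ list 3 on chromosome 9 outside the ABL1 segment were 631 to 1833 bp wide. Median widths on the long arm were 158, 155, and 157 bp in the SRA lists. In LacZ lists 1 and 2 they were 150 and 154 bp.

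The short arm held few of these peaks in both probe sets. It had 22, 26, and 19 peaks in SRA lists 1, 2, and 3, which were 12.3% (8.26 to 17.9%), 15.1% (10.5 to 21.2%), and 10.2% (6.6 to 15.3%) of the chromosome 9 peaks outside the ABL1 segment. LacZ lists 1, 2, and 3 had 14, 8, and 1 short-arm peaks, or 21.5% (13.3 to 33.0%), 11.0% (5.66 to 20.2%), and 14.3% (2.57 to 51.3%). The SRA and LacZ lists overlapped in this share. The SRA mean minus the LacZ mean was -3.07 percentage points (12.5% against 15.6%), with a two-sided exact permutation p = 0.6, and p = 0.75 with SRA as 1 sample. Without the bins from 35 to 75 Mb the difference had the opposite sign, at 2.66 percentage points, and without LacZ list 1 it was -0.0999. It was -7.25 among peaks from the median score of each list up, -5.39 without LacZ list 2, and -1.89 without SRA list 3.

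From the first to the last peak of all lists, the short arm covered 47.1 Mb, or 39.3% of the covered length, and the long arm 72.7 Mb without the ABL1 segment. The short-arm share of peaks was below 39.3% in each of the 6 lists. Averaged over 4 samples, with SRA as 1 of them, it differed from the share of length by -24.5 percentage points (two-sided exact sign-flip permutation p = 0.12, the smallest that 4 samples allow). In SRA lists 1, 2, and 3 there were 0.467, 0.552, and 0.404 peaks per Mb on the short arm and 2.16, 2.01, and 2.31 on the long arm. In LacZ lists 1 and 2 there were 0.297 and 0.17 peaks per Mb on the short arm and 0.702 and 0.895 on the long arm. The long arm was thus the denser arm in each of these lists, by 2.36 to 5.73 times.

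**Figure D1:**
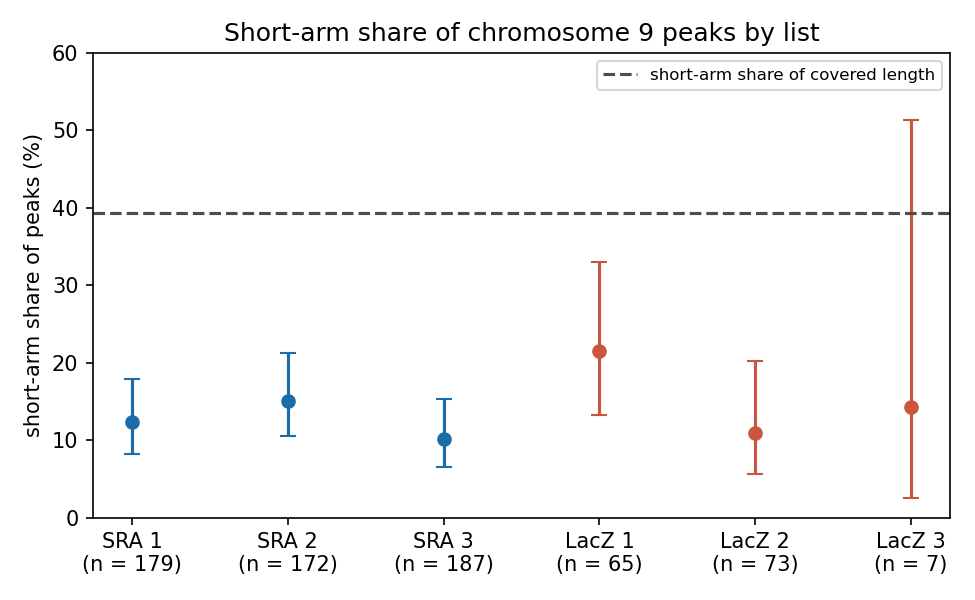
Short-arm share of chromosome 9 peaks outside the ABL1 segment in each list, in percent, with 95% Wilson intervals (bars) and the number of peaks (n). All 6 points lie below the dashed line, the short arm's 39.3% of the covered length, but the interval of LacZ list 3, with 7 peaks, reaches 51.3%.

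On chromosomes 1 to 22 and X other than 9, the SRA lists held 1.70, 1.68, and 1.76 peaks per Mb. The SRA density of the long arm was above these values in each list and that of the short arm below them. The lengths are unlike, however, since those of the other chromosomes run across their centromeres and those of the chromosome 9 arms leave the centromere out, which lowers the values of the other chromosomes. LacZ lists 1 and 2 had 0.926 and 0.904 peaks per Mb on the other chromosomes, above both arms of chromosome 9. In the excluded ABL1 segment the SRA lists had 14.5, 18.5, and 22.5 peaks per Mb and the LacZ lists 5.0, 2.0, and 0.5, so that both probe sets had more peaks per Mb there than on the other chromosomes, where LacZ list 3 had 0.101. Close to its limits, the SRA lists had 8, 8, and 10 peaks in the 1 Mb before the segment and 24, 31, and 36 in its first 1 Mb, then 5, 6, and 9 in its last 1 Mb and 8, 7, and 7 in the 1 Mb after it. The LacZ lists had 1, 2, and 0 peaks before it and 7, 2, and 0 in its first 1 Mb, then 3, 2, and 1 in its last and 1, 5, and 0 after it.

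No SRA peak and no LacZ peak had its midpoint in the 5 Mb bin from 20 to 25 Mb, which holds CDKN2A at about 21.97 Mb. The next bin, from 25 to 30 Mb, was also empty in all 6 lists, as was the bin from 5 to 10 Mb. Over chromosomes 1 to 22 and X, 8.46% of 603 such bins had no SRA peak and 9.45% had no LacZ peak. These shares are for single bins and for each probe set by itself, not for adjacent bins or for all lists together. Of the 9 bins of chromosome 9 that lie wholly on the short arm, 5 had no SRA peak and 3 had no LacZ peak. The bin from 45 to 50 Mb crosses the short-arm limit and is not among them, though it held peaks of both probe sets. A count of 0 allows a share of up to 1.68%, 1.74%, and 1.6% of the chromosome 9 peaks in SRA lists 1, 2, and 3, and of up to 4.62% and 4.11% in LacZ lists 1 and 2, for counting error only.

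The gap around CDKN2A was longer than a bin. Below the gene, the nearest SRA peak was at 19152047 to 19152193 in lists 1 and 3, 2.82 Mb away, with scores of 42.05 and 44.08. The score is the authors' MACS peak score, which starts at 40 in these lists. SRA list 2 had its nearest peak below the gene 18.4 Mb away, at 3533315 to 3533468. Above the gene, all 3 SRA lists had their nearest peak at 33073379 to 33073551, 11.1 Mb away. The nearest LacZ peaks were at 19293996 to 19294165 in list 2, 2.68 Mb below, and at 34996079 to 34996228 in list 1, 13.0 Mb above. LacZ list 3 had no peak below CDKN2A.

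Between these peaks lay 13.9 Mb without an SRA peak and 15.7 Mb without a LacZ peak, and 13.8 Mb had neither. On chromosomes 1 to 22 and X, 5 stretches without any peak were at least as long as the last, itself and centromeres included. The 2 of these on chromosome 9 were that stretch and the stretch across the centromere. The longest stretch between SRA peaks of the short arm was another one, of 14.3 Mb from 4874362 to 19126615, which does not hold CDKN2A and in which LacZ lists 1 and 2 had peaks. Between SRA peaks of the long arm, and so without the peak-free part next to the centromere, the longest stretch with no SRA peak was 6.12 Mb, from 80620406 to 86737579. In the order of protein-coding genes in the RefSeq annotation of GRCh38.p14, CDKN2A lies between MTAP, an enzyme of methionine salvage, and CDKN2B, which encodes another inhibitor of the cell cycle, and 16 of the 20 genes before it are type I interferon genes. The part of the deletion in the peak-free stretch was not tested. Of these genes, CDKN2A lies inside the peak-free stretch. Which of the others lie inside it was not analysed here, since no hg19 positions were used for them.

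Short-arm peaks were gathered in the bins from 30 to 40 Mb. These bins held 18 of 22, 23 of 26, and 15 of 19 short-arm peaks in SRA lists 1, 2, and 3, and 10 of 14, 4 of 8, and 1 of 1 in LacZ lists 1, 2, and 3. The bin from 35 to 40 Mb had the most peaks of the short arm in both probe sets, with 11, 16, and 8 SRA peaks and 9, 4, and 1 LacZ peaks. The bin from 30 to 35 Mb differed between the probe sets, with 7 peaks in each SRA list but 1, 0, and 0 in the LacZ lists. The 7 SRA peaks were the same regions in every SRA list, and the LacZ lists held fewer peaks in all. That bin was chosen after its values were seen and its difference was not tested.

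On the long arm, the bins from 55 to 65 Mb were empty in all lists, next to the centromere. Peaks were few up to 95 Mb and most frequent near the end of the arm. The bin from 130 to 135 Mb had 22, 28, and 38 SRA peaks although only 3 Mb of it lie outside the ABL1 segment, and the bin from 135 to 140 Mb had 30, 25, and 26. In LacZ lists 1 and 2 the same bins had 8 and 10, and 5 and 14 peaks. From 130 Mb on, the SRA lists had 39.5%, 41.1%, and 42.3% of their long-arm peaks and LacZ lists 1 and 2 had 18 of 51 and 26 of 65. SRA and LacZ densities went together over the 23 bins with any peak (Pearson r = 0.95, Spearman rho = 0.841; SRA mean against the mean of LacZ lists 1 and 2). Bins of a chromosome are not replicates, and both probe sets come from the same cell line, so these values are a description.

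Overlapping SRA peaks were merged, and merged regions that came from 2 or 3 SRA lists and met no LacZ peak were called SRA-binding regions. The short arm had 22 SRA-binding regions among 33 merged regions, or 66.7% (95% Wilson interval 49.6 to 80.2%), and the long arm had 149 among 265, or 56.2% (50.2 to 62.1%). Over all lists, 52.6% of 8658 merged regions met the rule, a value inside both intervals. Per covered Mb there were 0.467 SRA-binding regions on the short arm, 2.05 on the long arm, and 1.55 on chromosomes 1 to 22 and X other than 9. Only chromosomes 13 and X had fewer than the short arm, at 0.254 and 0.279 per Mb, with the same difference in how lengths were taken. The counts depended on the rule: with a peak required in all 3 SRA lists, 12 regions were left on the short arm and 56 on the long arm. These were 36.4% (22.2 to 53.4%) and 21.1% (16.6 to 26.4%) of the merged regions of each arm, against 21.2% over all lists. That last value is inside the long-arm interval and below the short-arm interval. These intervals take regions as independent, however, and the SRA lists were not independent. Of the 12 short-arm regions, 7 lie in the bin from 30 to 35 Mb, and the difference between arms was not tested. With SRA list 1, 2, or 3 left out and both others required, the long arm had 90, 88, and 83 regions.

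Among the 12 short-arm regions in all 3 SRA lists and no LacZ list, the highest mean score was 63.9, at 38007867 to 38008079, with scores of 65.98, 49.67, and 76.11 in SRA lists 1, 2, and 3. It was followed by 38050135 to 38050479, with 57.16, 57.35, and 59.26, and by 33402812 to 33402965, with 57.53 in every SRA list. Among the 56 such long-arm regions, the highest mean score was 84.1, at 130924634 to 130925112, with scores of 75.64, 95.28, and 81.49. The next were 131016741 to 131017794, with 68.14, 95.04, and 50.65, and 95823113 to 95823314, with 54.97, 70.47, and 73.42. Among these 6 regions the scores differed between SRA lists by 0.0 to 44.4, although the ends of each region were the same.

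Both of the first long-arm regions lie in a stretch of wide SRA regions before the ABL1 segment. From 130911394 to 131097208, or 186 kb, all 8 merged SRA regions were at least 300 bp wide, with a median width of 405 bp, and 3 of them were SRA-binding regions. From 123595022 to 123642484, all 4 merged SRA regions were that wide, with a median of 579 bp. Outside both stretches, 4 of 286 merged SRA regions on chromosome 9 were at least 300 bp wide, a count kept low by how the stretches were chosen. With both stretches included, 16 of 298 merged SRA regions outside the ABL1 segment were that wide. Over all lists, 6.6% of merged SRA regions were, and in the ABL1 segment 49 of 61. The limit of 300 bp and the stretches were chosen after the widths were seen, and no test was made. LacZ lists 1 and 2 each had 1 peak in the first stretch, of 358 and 336 bp, and no LacZ list had one in the other. Both LacZ peaks there were thus wide too, while 2 of 65 and 1 of 73 peaks of LacZ lists 1 and 2 were at least 300 bp wide on chromosome 9 outside the ABL1 segment.

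Of 298 merged SRA regions outside the ABL1 segment, 1 overlapped a LacZ peak, or 0.336% (95% Wilson interval 0.0593 to 1.88%), against 0.901% of merged SRA regions over all lists. It lay at 66483758 to 66483975 on the long arm, with scores of 46.95 and 57.06 in SRA lists 1 and 2 and 77.24 in LacZ list 2. The LacZ peaks of highest score on the long arm were at 102580253 to 102580480 in list 2, with 102.67, and at 132731077 to 132731234 in list 1, with 100.73. On the short arm they were at 37892024 to 37892199, with 66.17, and at 14470564 to 14470697, with 65.27, both in list 1. The highest LacZ scores of the long arm were above the highest SRA score on either arm, 95.28. On the short arm, the highest LacZ score, 66.17, was below the highest SRA score, 76.11. Of 137 merged LacZ regions, 6 were in at least 2 LacZ lists, or 4.38%, against 1.34% of LacZ regions over all lists. None of these 6 overlapped an SRA peak, and over all lists 1.42% of merged LacZ regions did. On the long arm 2 of 114 merged LacZ regions were in all 3 LacZ lists, against 0.127% over all lists.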

How the data were processed

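Libraries of SRA and LacZ ChIRP from K562 were sequenced, aligned to hg19, and called with MACS (version not given in the sources used here) by the authors, who deposited 1 list per sample that gives peak limits and a score. The submitters' processing notes also name CASAVA 1.8.2 and deepTools. The control of each list is not given in the sources used here. The score is headed −log10 of the p-value, but its minimum of 40 was read as 10 times −log10 of 0.0001. Peaks were counted by list, with overlap set at 1 bp, bins of 5 Mb by midpoint, and exact permutation tests over lists. Lengths run from the first to the last peak. Regions named were those with the highest mean score or LacZ score on each arm, those with both probe sets, those nearest CDKN2A, and the longest peak-free stretches. Also named were the stretches of wide SRA regions and the recurring LacZ sites, both chosen after their values were seen. The members and lists were chosen with earlier results of these data known. The peaks reach beyond the end of chromosome 9 in the GRCh38 genome supplied, so no sequence or gene position was taken from it. Counting was tested on simulated lists. The methods call the samples biological triplicates. Software was matplotlib 3.10.9, scipy 1.17.1, numpy 2.4.6, pandas 2.3.3, and Python 3.11.15.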

Additional observations from a re-analysis of the deposited data

How the results depend on the processing

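For the SRA and LacZ share of peaks on chromosome 9 outside the ABL1 segment, the difference ranged from 0.696 to 1.46 percentage points over 13 alternatives, but no test of 3 lists against 3 can pass 0.05, so these p-values say nothing of stability. The difference in short-arm share was reversed without the bins from 35 to 75 Mb, at 2.66 percentage points, and lay between -7.25, among peaks from the median score up, and -0.0999, without LacZ list 1, under the other alternatives; the cause was not tested. With all 6 lists as samples, the short-arm share differed from the share of length by -25.3 percentage points (exact sign-flip permutation p = 0.03125, the smallest possible), but the SRA lists are not independent.

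Short-arm SRA-binding regions numbered 12 when all 3 SRA lists were required, 12 when only peaks from the median score up were kept, and 9 without the bins from 35 to 75 Mb. Long-arm regions numbered 56 with all 3 lists required, 264 with any 1 list, and 76 from the median score up. With 1 list left out they ranged from 83 to 150, the lower values without an SRA list. The window of 5 Mb centred on CDKN2A also held 0 SRA peaks. The other alternatives for this count only remove or join peaks and could not add one.

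With the replicate block, which paired lists by number, the differences were 1.01 percentage points (exact sign-flip permutation p = 0.25) for the chromosome 9 share and -3.07 (p = 0.75, same test) for the short-arm share. With 3 pairs no p below 0.25 is possible, so no call could change. Deviations of same-numbered lists over 1 Mb windows correlated at 0.047, -0.027, and -0.013. Those of lists with different numbers correlated at -0.072 to 0.059. Peaks are sparse over such windows, so these values cannot show whether same-numbered lists shared a preparation.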

Other observations

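The LacZ lists had 2 long-arm sites that recurred in all 3 lists. At 102579801 to 102581292 the scores were 70.31, 102.67, and 49.11 in LacZ lists 1, 2, and 3, and the nearest SRA region was 56.0 kb away. At 139822002 to 139822981 they were 70.61, 50.03, and 83.02, and the nearest SRA region was 55.5 kb away. The LacZ peaks at 132731065 to 132731234 recurred in lists 1 and 2, with 100.73 and 93.12. These sites were chosen after their values were seen.

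Contigs that hg19 assigns to chromosome 9 without a position were outside the peaks counted. They held 1, 2, and 1 peaks in SRA lists 1, 2, and 3 and 2, 3, and 0 in the LacZ lists.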
